A study of Mus musculus with 24 samples.

Results

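The S100 proteins are small calcium-binding proteins, and 8 of their genes were described here across the whole series: S100a8, S100a9, S100a1, S100a4, S100a6, S100a10, S100a11 and S100a13. They were chosen as a named list and found by symbol among the 43629 genes of the count table. 7 of the 8 passed the filter on low counts and were tested, and S100a6 did not pass. RNA sequencing was done in 24 libraries of mouse acute myeloid leukaemia cells (AML, cell line label MLLAF9) in 8 groups of 3. All groups, the control included, carried the MLL-AF9 fusion and Cas9, received lentiviral guide RNA at 0.3 infectious units per cell, and went through a 72-hour selection in 2 ug/ml puromycin that began 48 hours after infection. The RNA dates from day 9. The groups were a non-targeting guide (NT), 1 guide against DOT1L, and 2 guides each against MLLT10, MLLT1 and MLLT6. These genes encode members of the complex around DOT1L, a histone methyltransferase. The labels name 1 cell line and do not say whether replicates were separate cultures or transductions, so the p-values refer to variation among these libraries, which may be technical. DOT1L had a single guide, so its results have no second guide beside them.

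Most S100 proteins form dimers, change shape when calcium enters a cell, and then bind a partner protein. S100A8 and S100A9 pair with each other as calprotectin, a major cytosolic protein of neutrophils that is also made by monocytes, and that withholds zinc and manganese from microbes when released. S100A10 binds annexin A2 and has lost the ability to bind calcium, S100A11 binds annexin A1, S100A4 binds non-muscle myosin and S100A6 binds the ubiquitin-ligase adaptor encoded by Cacybp. In leukaemia cells the calprotectin genes are widely used as markers of granulocyte and monocyte maturation.

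All 8 members lie on chromosome 3 of mm10 (GRCm38). S100a8 (chr3:90668978-90670035, plus strand) and S100a9 (chr3:90692632-90695721, minus strand) are 22.6 kb apart and point towards each other. S100a1 (chr3:90511034-90514392, minus strand) and S100a13 (chr3:90514435-90524581, plus strand) start 42 bases apart and point away from each other. S100a4 (chr3:90603771-90606045) and S100a6 (chr3:90612882-90624181) lie between these pairs, while S100a11 (chr3:93520488-93526287) and S100a10 (chr3:93555080-93564643) lie 2.82 and 2.86 Mb beyond S100a9.

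RefSeq promoters (GRCm38.p6) were matched for 7 of the 8 members, and 3 are shown: those of S100a8 and S100a9, which moved together across the groups, and that of S100a4, which was not called in any comparison of groups. Each is the 250 bases before the RefSeq start, 5′ to 3′ on the gene's strand. Capitals mark matches, on either strand, to 3 motifs: the TATA box core TATAAA, the pattern TTNNGNAA that C/EBP factors bind, and GAGGAA, the core bound by PU.1.
S100a8 (chr3:90668821-90669070, plus strand): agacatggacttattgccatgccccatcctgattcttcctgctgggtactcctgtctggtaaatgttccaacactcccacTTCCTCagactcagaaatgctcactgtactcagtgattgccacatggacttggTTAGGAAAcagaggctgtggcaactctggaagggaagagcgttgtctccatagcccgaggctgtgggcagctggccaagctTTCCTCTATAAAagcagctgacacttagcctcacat
S100a9 (chr3:90695722-90695971, minus strand): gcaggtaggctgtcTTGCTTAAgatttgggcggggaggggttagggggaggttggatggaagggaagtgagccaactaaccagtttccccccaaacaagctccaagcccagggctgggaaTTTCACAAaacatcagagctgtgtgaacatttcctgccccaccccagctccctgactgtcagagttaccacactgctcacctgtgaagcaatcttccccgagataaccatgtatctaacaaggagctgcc
S100a4 (chr3:90603520-90603769, plus strand): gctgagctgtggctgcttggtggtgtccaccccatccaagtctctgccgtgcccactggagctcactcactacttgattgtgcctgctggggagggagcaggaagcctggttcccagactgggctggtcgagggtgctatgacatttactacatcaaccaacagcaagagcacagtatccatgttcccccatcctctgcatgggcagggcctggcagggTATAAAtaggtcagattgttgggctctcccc

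In the S100a8 promoter TATAAA began 30 bases before the start, TTNNGNAA began 117 bases before it, and the reverse complement of GAGGAA began 170 and 36 bases before it, the nearer copy touching the TATA core without overlapping it. In the S100a9 promoter TTNNGNAA matched on the opposite strand 236 and 130 bases before the start, and TATAAA lay at base 1 after the RefSeq start, outside the printed stretch but inside the 300 bases searched. In the S100a4 promoter TATAAA began 31 bases before the start and GAGGAA matched once, on the opposite strand from base 20 after it. The promoters of S100a1, S100a6 and S100a13 held none of the 3 motifs in the same window, and that of S100a11 held GAGGAA 153 bases before the start. Among 32851 promoters of that length, 13.6% held TATAAA, 40.7% TTNNGNAA and 28.3% GAGGAA, so each of these words is common, and a match is no evidence of binding.

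Library totals ranged from 2403044 to 7415397 counts. Transcripts of the targeted gene lay below the lowest NT library in every DOT1L, MLLT10 and MLLT6 library. The log2 fold changes were -0.71 ± 0.13 (SE) for Dot1l, -0.76 ± 0.21 for Mllt10 and -0.90 ± 0.19 for Mllt6, of which Dot1l passed the test (edgeR adjusted p = 0.000189, 0.139 and 0.495). Mllt1 was at 34.9 to 69.1 CPM in its knockout against 21.7 to 41.1 in NT and was not called (edgeR adjusted p = 0.148). A guide can disable a protein without lowering its transcript, so this value does not check the MLLT1 labels. The leukocyte markers Ptprc, Itgam and Spi1 were present in every group, and the lymphoid markers Cd3e, Cd79a and Ms4a1, the macrophage marker Ms4a7, the erythroid marker Alas2 and the keratins Krt5 and Krt14 had no count in any library. Other markers on these lists were counted: Nkg7, a cytotoxic granule gene, stood at 129 to 185 CPM in NT and 329 to 429 in DOT1L, Pecam1, an endothelial and myeloid adhesion gene, at 346 to 454 and 157 to 191 CPM, and the collagen gene Col1a1 at 0 to 0.936 and 14.5 to 19.9 CPM. All 3 were called in DOT1L (edgeR adjusted p = 0.000500, 0.0139 and 1.60e-05). Col1a1 was near 0 in every group but DOT1L. It passed the filter on low counts only through DOT1L, so its call there is not separate evidence. The summed erythroid markers were at most 3.46 CPM in any NT or knockout library. Replicate 1 of MLLT1 guide 1 and replicate 3 of MLLT6 guide 1 lay furthest from their group means, at 0.488 and 0.428 root mean square log2 units against 0.274 to 0.407 for the others. Leaving both out changed no call of a member in the knockouts against NT.

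S100a8 and S100a9 were the members with the largest changes, and they changed together. S100a8 stood at 97.5, 53.1 and 61.3 CPM (counts scaled to the TMM-normalised library size) in the 3 NT libraries and at 37227, 41617 and 37140 CPM in the 3 DOT1L libraries. S100a9 stood at 89.2, 54.0 and 47.7 CPM in NT and at 31788, 35246 and 37138 CPM in DOT1L. The groups were separated by orders of magnitude, and the lowest DOT1L library lay far above the highest library of any other group. The log2 fold change was 9.10 ± 0.43 (SE, n = 3 against 3) for S100a8 and 9.09 ± 0.36 for S100a9, which is 549-fold and 547-fold, with edgeR adjusted p = 2.06e-13 and 7.01e-15. Together both genes took 6.07 to 6.63% of a DOT1L library's counts and 0.0110 to 0.0187% of an NT library's, while the other 6 members took 0.192 to 0.267% and 0.0960 to 0.133%. Computing library sizes without them left the log2 fold changes at 9.10 and 9.09. In bulk RNA, more cells that express a gene and more RNA of it per cell cannot be told apart.

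**Figure D1:**
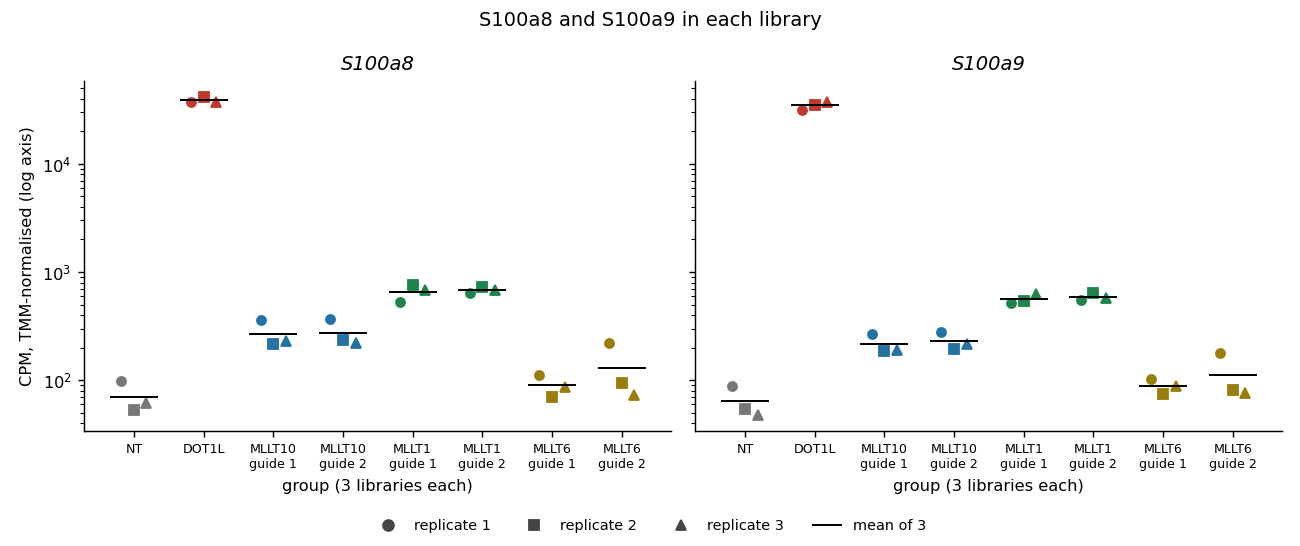
CPM (TMM-normalised, log axis) of S100a8 and S100a9 in each of the 24 libraries by group; symbols give the replicate number and the black line the mean of 3. Both genes lie highest in DOT1L (31788 to 41617), then MLLT1, then MLLT10, while MLLT6 and NT libraries overlap.

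Both calprotectin genes were also higher in the MLLT10 and MLLT1 knockouts, with each guide. In MLLT10, guide 1 gave S100a8 levels of 363, 215 and 228 CPM and guide 2 levels of 369, 235 and 222 CPM. In MLLT1, guide 1 gave 523, 754 and 683 CPM and guide 2 gave 643, 723 and 676 CPM. No MLLT10 library fell as low as NT, and no MLLT1 library fell as low as MLLT10. Against NT, S100a8 rose by 1.95 ± 0.30 log2 in MLLT10 (SE, edgeR adjusted p = 0.00151) and by 3.24 ± 0.32 in MLLT1 (adjusted p = 7.88e-07), which is 3.87-fold and 9.48-fold.

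S100a9 followed the same order. The MLLT10 libraries held it at 265, 187 and 192 CPM (guide 1) and 277, 195 and 217 CPM (guide 2), and the MLLT1 libraries at 519, 540.4 and 626 CPM (guide 1) and 547, 640.1 and 572 CPM (guide 2). It rose by 1.81 ± 0.25 log2 in MLLT10 (edgeR adjusted p = 0.000465) and by 3.18 ± 0.26 in MLLT1 (adjusted p = 2.14e-07). The direct comparisons placed the groups in order: MLLT10 was below MLLT1 by 1.29 ± 0.22 for S100a8 and 1.37 ± 0.18 for S100a9 (edgeR adjusted p = 0.000943 and 6.33e-05), and DOT1L was above MLLT1 by 5.86 ± 0.28 and 5.92 ± 0.23 (adjusted p = 1.31e-13 and 3.28e-15).

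Each guide was tested on its own as well. For S100a8 the log2 fold change against NT was 1.93 ± 0.32 and 1.97 ± 0.32 with the MLLT10 guides (edgeR adjusted p = 0.00601 and 0.00610) and 3.22 ± 0.34 and 3.27 ± 0.34 with the MLLT1 guides (adjusted p = 7.33e-06 and 4.53e-06). The guides of a gene differed by 0.04 ± 0.30 for MLLT10 and by 0.06 ± 0.30 for MLLT1. With fewer libraries some S100a8 calls of the single MLLT10 guides were lost while the log2 fold changes remained of similar size. Without NT replicate 2 they were 1.76 for guide 1 and 1.80 for guide 2 (edgeR adjusted p = 0.0997 and 0.0634), and without NT replicate 3 they were 1.86 and 1.89 (0.0705 and 0.0674). Without its own replicate 1, guide 1 gave 1.65 (adjusted p = 0.0541).

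MLLT6 did not pass the test for either gene. S100a8 levels were 111, 70.3 and 87.4 CPM under guide 1 and 219, 95.1 and 72.6 CPM under guide 2. S100a9 levels were 102, 74.3 and 88.6 CPM, then 180.3, 81.6 and 76.5 CPM. Apart from replicate 1 of guide 2, these libraries lay within or just above the NT range. The log2 fold change against NT was 0.61 ± 0.28 for S100a8, with a 95% interval of 0.06 to 1.16, and 0.65 ± 0.24 for S100a9, with an interval of 0.19 to 1.11 (edgeR adjusted p = 0.698 for both). Without replicate 1 of guide 2 these values were 0.30 and 0.39. Without the filter on low counts S100a9 passed (adjusted p = 0.0469) and S100a8 did not (0.0756). MLLT6 lay below MLLT10 by 1.34 ± 0.22 for S100a8 and by 1.16 ± 0.18 for S100a9 (adjusted p = 0.00192 and 0.00123).

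The share of the family that was called differed between knockouts, as did the share of all genes. In DOT1L, 4 members rose and 1 fell of the 7 tested, where 21.8% of all 10578 tested genes were called. In MLLT10 and in MLLT1, 2 members rose, S100a8 and S100a9, where 0.473% and 2.58% of all genes were called. In MLLT6 no member was called and 0% of genes were: edgeR called 0 genes, with 727 at an unadjusted p under 0.05, and DESeq2 also called 0. The median log2 fold change of the 7 members was 1.26 in DOT1L, 0.01 in MLLT10, -0.07 in MLLT1 and 0.02 in MLLT6, and the median over all tested genes lay within 0.01 of 0 in each.

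**Figure D2:**
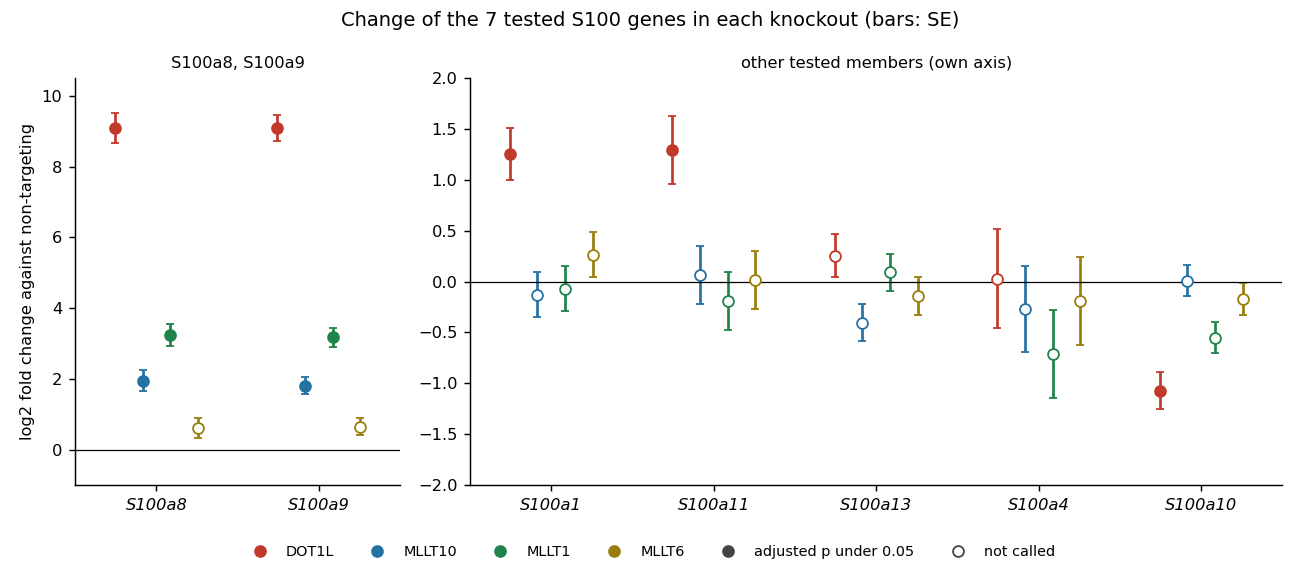
Log2 fold change of the 7 tested S100 genes in each knockout against non-targeting, with bars of 1 SE; filled points passed at an adjusted p under 0.05. S100a8 and S100a9 (left axis) are called in DOT1L, MLLT10 and MLLT1, whereas the other members (right, own axis) are called only in DOT1L.

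By guide, 2 members were called with MLLT10 guide 1, where 0.17% of genes were, and 2 with guide 2, where 0.303% were. The same 2 members were called with MLLT1 guide 1, at 1.25% of genes, and with guide 2, at 1.22%. No member was called with either MLLT6 guide, where edgeR called 0% of genes (1389 and 286 genes at an unadjusted p under 0.05), or between the 2 guides of any gene, again 0% (182, 221 and 984 genes). Between knockouts, 5 members were higher and 1 lower in DOT1L than in MLLT10 (23.5% of genes called), and 4 were higher and 1 lower than in MLLT1 (19.6%) and than in MLLT6 (29.3%). MLLT10 differed from MLLT1 in 3 members (2.68%) and from MLLT6 in 2 (0.766%), and MLLT1 differed from MLLT6 in 2 (4.45%).

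The ratio of S100a8 to S100a9 counts in the same library does not depend on library scaling. It was 1.09, 0.983 and 1.28 in the NT libraries and 1.17, 1.18 and 1.00 in the DOT1L libraries, and it ranged from 0.947 to 1.40 over all 24. The groups overlapped throughout, so differences in the ratio lay within the spread between libraries while both levels rose by more than 9 log2 units. The mean log2 ratio in DOT1L minus that in NT was 0.00 ± 0.14 (SE, n = 3 against 3, exact two-sided permutation p = 1, where the smallest p possible is 0.1). In MLLT10, MLLT1 and MLLT6 the difference from NT was 0.12 ± 0.13, 0.06 ± 0.13 and -0.08 ± 0.13 (n = 6 against 3, exact permutation p = 0.357, 0.667 and 0.571), and no value passed.

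S100a1, best known from heart and skeletal muscle, rose in DOT1L while S100a13, its head-to-head neighbour, was not called. S100a1 stood at 173, 208 and 148 CPM in NT and at 359, 431 and 474 CPM in DOT1L, with no overlap. It rose by 1.26 ± 0.26 log2 (2.39-fold, edgeR adjusted p = 0.000789), and it was also higher in DOT1L than in MLLT10, MLLT1 and MLLT6, by 1.38 ± 0.21, 1.33 ± 0.21 and 0.99 ± 0.21 (adjusted p = 2.54e-05, 4.65e-05 and 0.000900). S100a13, known for its part in the release of a fibroblast growth factor, stood at 27.6, 30.3 and 25.6 CPM in NT and at 27.8, 41.9 and 30.4 CPM in DOT1L. These ranges overlapped, and its log2 fold change was 0.26 ± 0.21 (95% interval -0.16 to 0.67, adjusted p = 0.444).

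In the fit without a block, the only call for S100a13 was between DOT1L and MLLT10. It was higher in DOT1L by 0.66 ± 0.18 (edgeR adjusted p = 0.00811). Its 6 MLLT10 libraries lay at 12.1 to 28.1 CPM with a median of 21.6, and the 3 of guide 2 all lay below NT (-0.61 ± 0.21 log2, adjusted p = 0.335). That call was lost without DOT1L replicate 2, the highest library of the gene (0.47, adjusted p = 0.112).

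The ratio of S100a1 to S100a13 counts was 6.28, 6.88 and 5.77 in NT and 12.9, 10.3 and 15.6 in DOT1L, so every DOT1L library lay above every NT library. The log2 difference was 1.02 ± 0.19 (SE, n = 3 against 3), and its exact two-sided permutation p of 0.1 is the smallest this design allows (0.4 after adjustment over the 8 ratio tests). In MLLT6 the ratio was 0.42 ± 0.12 log2 above NT (n = 6 against 3, exact permutation p = 0.0476), which became 0.381 after adjustment over the 8 ratio tests. The S100a1 to S100a13 ratio was chosen after the values were seen.

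**Figure D3:**
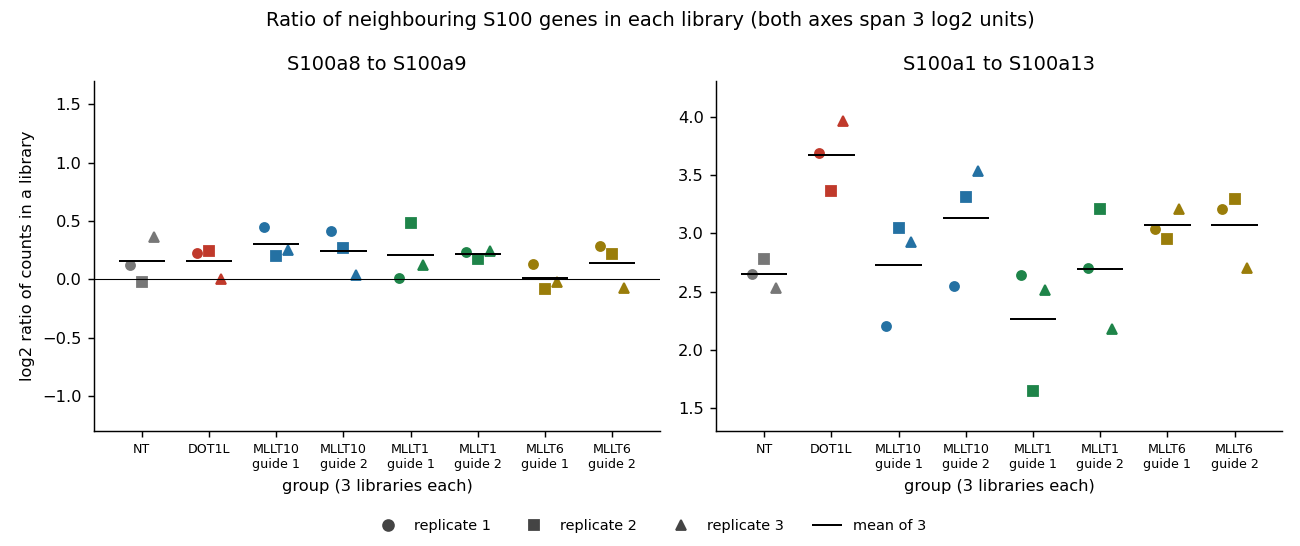
Log2 ratio of counts of S100a8 to S100a9 (left) and of S100a1 to S100a13 (right) in each library, both axes spanning 3 log2 units; the black line is the mean of 3. On the left every knockout group overlaps with NT (0.947 to 1.40 as a ratio over all libraries). On the right the DOT1L libraries (10.3 to 15.6) lie above NT (5.77 to 6.88).

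S100a11 and S100a10, the annexin partners, moved in opposite directions in DOT1L. S100a11 stood at 1029, 900.4 and 586 CPM in NT and at 1743, 1945 and 2492 CPM in DOT1L. It rose by 1.30 ± 0.33 log2 (2.46-fold, edgeR adjusted p = 0.00624). S100a10 stood at 92.1, 133 and 126 CPM in NT and at 44.5, 72.0 and 50.9 CPM in DOT1L, and it fell by 1.07 ± 0.18 log2 (adjusted p = 0.000124). Neither gene's DOT1L libraries overlapped with NT.

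Their annexins did not follow the same split. Anxa1, which encodes the partner of S100A11 and a mediator of the resolution of inflammation, went from 8.75 ± 5.58 (SD) to 956 ± 175 CPM and rose by 6.77 ± 0.42 log2 in DOT1L (edgeR adjusted p = 3.30e-11). Anxa2, which encodes the partner of S100A10, was at 607 ± 101 CPM in NT and 607 ± 96.2 CPM in DOT1L, and its log2 fold change was 0.00 ± 0.18 (edgeR adjusted p = 0.999). Anxa2 was picked for its role after its values were seen.

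S100a10 was the member that came nearest to a call outside the calprotectin pair in another knockout. In MLLT1 its levels were 75.1, 83.5 and 80.8 CPM under guide 1 and 70.6, 81.2 and 88.0 CPM under guide 2, all below the lowest NT library. Its log2 fold change of -0.55 ± 0.15 did not pass (edgeR adjusted p = 0.0558). It passed when replicate number was added as a block (0.0150), in DESeq2 (0.0210) and without NT replicate 1 (0.0174), over an adjusted p of 0.0150 to 0.346 in 16 alternatives. In MLLT10 it was at 110 to 126 CPM and higher than in MLLT1 by 0.56 ± 0.13 (adjusted p = 0.0130, or 0.0510 without MLLT1 guide 2 replicate 1). DOT1L was below MLLT1 by 0.52 ± 0.16 (adjusted p = 0.0230), a call lost without DOT1L replicate 1 (0.146) or 3 (0.137).

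S100a1 and S100a11 tended to deviate together from their group means. Both were lowest in the same library in 6 of the 8 groups and highest in the same library in 6, and they lay on the same side of the mean in 19 of the 24 libraries. In MLLT10 guide 1, S100a11 stood at 419, 1289 and 1169.7 CPM and S100a1 at 97.9, 233 and 177 CPM, both lowest in replicate 1. In MLLT1 guide 1, S100a11 stood at 724, 383 and 866 CPM and S100a1 at 201, 112 and 164 CPM, both lowest in replicate 2. Both genes were read in the same libraries, and no test was made of this pattern. Neither gene was called in MLLT10, MLLT1 or MLLT6 against NT, and the 95% intervals of the log2 fold change of S100a11 were -0.50 to 0.62, -0.75 to 0.36 and -0.55 to 0.58.

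**Figure D4:**
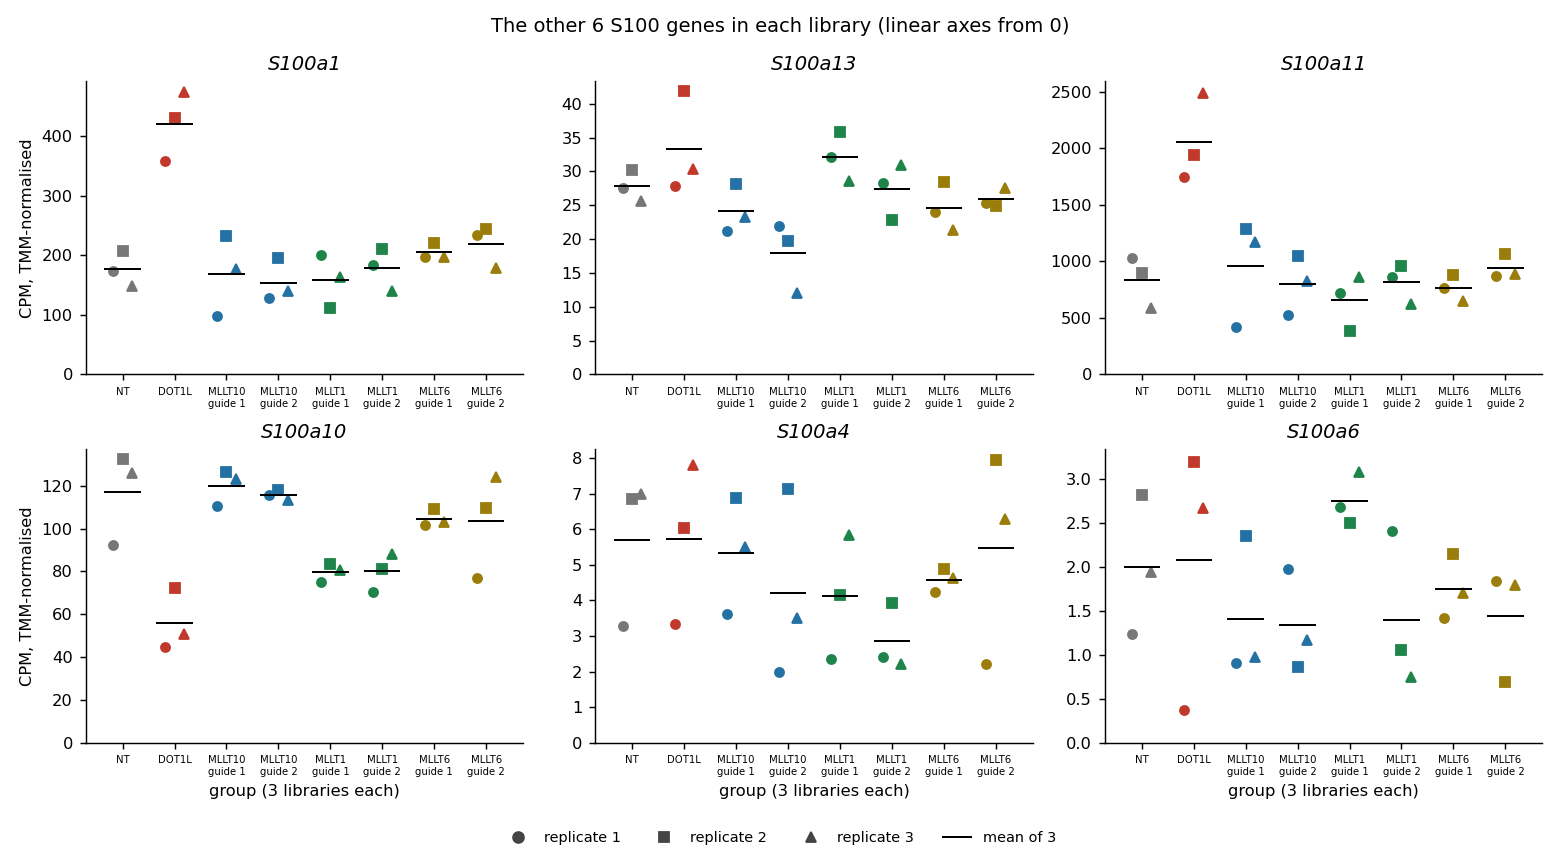
CPM (TMM-normalised, linear axes from 0) of the other 6 S100 genes in each library by group; symbols give the replicate number and the black line the mean of 3. S100a1 and S100a11 are highest and S100a10 lowest in DOT1L, while S100a4 (1.98 to 7.96 CPM) and S100a6 (0.371 to 3.19 CPM) are low in every group.

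S100a4 and S100a6, often abundant in motile and stromal cells, were counted rarely in every group. S100a4 had 487 counts over the 24 libraries, at 1.98 to 7.96 CPM. It stood at 3.29, 6.87 and 6.98 CPM in NT and at 3.34, 6.03 and 7.82 CPM in DOT1L, with full overlap. Its log2 fold change in DOT1L was 0.03 ± 0.49, with a 95% interval of -0.93 to 0.99, so changes within that range are not excluded. It was not called either in MLLT10 (-0.27 ± 0.42), MLLT1 (-0.71 ± 0.43) and MLLT6 (-0.19 ± 0.43), with edgeR adjusted p of 0.887, 0.455 and 0.923. The M21 annotation places another gene, Gm42674, over S100a4. Gm42674 has no row in the count table, and reads from shared sequence could not be told apart.

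S100a6 had 179 counts in all, at 0.371 to 3.19 CPM, and was not tested. It stood at 1.23, 2.81 and 1.94 CPM in NT and at 0.371, 3.19 and 2.67 CPM in DOT1L. Beyond the 8 members, 9 further S100 genes had a row in the table, and none was tested. S100a2 (160 counts in all), S100a5 (119), S100g (88) and S100a3 (34) were seen in several libraries, S100a14 and S100a7a had 8 and 1 counts, and S100a16, S100b and S100z had none. S100a5 had 3 counts over the NT libraries and 21 over the DOT1L libraries. Its mean CPM was 0.403 in NT, 2.04 in DOT1L, 1.58 in MLLT1, 0.934 in MLLT10 and 0.946 in MLLT6.

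The genes around S100a8 and S100a9 on chromosome 3 were called about as often as all genes. Of 34 other genes within 500 kb, 24 had counts and 13 were tested. In DOT1L, 1 of the 13 was called higher, S100a1 at 155 kb, and 1 lower, Snapin, which encodes a protein of vesicle docking (-0.77 ± 0.17, edgeR adjusted p = 0.00162), so 15.4% were called, against 21.8% of all genes. Within 250 kb the same count was 2 of 7 (28.6%), and within 1000 kb it was 4 of 21. The nearest tested gene was S100a4 at 62.9 kb, and on the side of S100a9 no gene was tested within 500 kb. S100a7a, 10.3 kb away, had 1 count in all 24 libraries, as did Pglyrp4, a peptidoglycan-recognition gene 31.2 kb away on the other side. In MLLT10, MLLT1 and MLLT6 none of the 13 was called.

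Genes that are known to act on the calprotectin promoters were then read as a list of 6, and all were tested. All 6 rose in DOT1L, where 21.8% of all tested genes were called. Over 13 alternatives 4 to 6 of them were called, and the highest adjusted p were those of Cebpb and Stat3 (edgeR, 0.0161 and 0.0389). The largest rise was that of Cebpd, at 117 ± 24.9 CPM (SD) in NT and 572 ± 106 in DOT1L, a rise of 2.29 ± 0.26 log2 (edgeR adjusted p = 4.92e-07). Spi1, which encodes PU.1, rose by 1.38 ± 0.23, Cebpe, needed for late granulocyte maturation, by 1.34 ± 0.25, and Cebpa by 0.84 ± 0.23 (adjusted p = 9.76e-05, 0.000299 and 0.00887). The median of the list was 1.36, against 0.01 over all tested genes. In MLLT10 and MLLT6 none was called. In MLLT1 only Cebpe rose, by 0.83 ± 0.22 (adjusted p = 0.0444), a call that was lost when any of several libraries was left out, among them NT replicate 2 or 3. The MLLT1 count was 0 to 3 over 16 alternatives, with 3 without the filter on low counts and 2 with the replicate number as a block.

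Of 12 partners and receptors of S100 proteins, 8 were tested, and 4 rose and 1 fell in DOT1L, against 21.8% of all genes called. Besides Anxa1, Myh9, the non-muscle myosin heavy chain bound by S100A4, rose by 1.45 ± 0.24 (edgeR adjusted p = 0.000100), and Ager, which encodes the receptor RAGE, rose by 2.35 ± 0.50 from 2.97 ± 1.86 CPM (SD) in NT to 14.5 ± 5.28 (adjusted p = 0.00113). Bsg, which encodes basigin, a receptor of S100A9, fell by 1.21 ± 0.26 (adjusted p = 0.00116). The fourth that rose was Cacybp, by 0.55 ± 0.17 (adjusted p = 0.0207), which is named here after its values were seen. None was called in MLLT10, MLLT1 or MLLT6. In MLLT1, 1 was called without the filter on low counts and 1 without NT replicate 1.

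Metal-binding genes of host defence, whose products bind iron, zinc or copper as calprotectin binds zinc and manganese, did not move as 1 group. Of 7, 6 were tested, and in DOT1L 2 rose and 3 fell, again beside 21.8% of all genes. Ltf, encoding lactoferrin, went from 0.716 ± 0.289 (SD) to 1728 ± 87.1 CPM and Lcn2, encoding the siderophore-binding lipocalin of neutrophils, from 25.2 ± 1.94 to 2165 ± 354 CPM, with log2 fold changes of 11.15 ± 0.62 and 6.42 ± 0.36 (edgeR adjusted p = 3.99e-12 and 4.53e-12). Mt2, a metallothionein, fell by 0.87 ± 0.24 and Fth1, the ferritin heavy chain, by 0.67 ± 0.21 (adjusted p = 0.0109 and 0.0204). Mt1, the other metallothionein, fell by 0.64 ± 0.22 (adjusted p = 0.0350). The count of 5 calls was 3 without NT replicate 1 or 2, or without DOT1L replicate 1 or 3. In MLLT1, Ltf and Lcn2 rose by 4.21 ± 0.66 and 1.75 ± 0.29 while Mt2 and Mt1 fell by 1.41 ± 0.20 and 0.85 ± 0.18 (adjusted p = 0.000694, 0.00107, 0.000225 and 0.0110). In MLLT10 only Ltf rose, by 3.16 ± 0.72 (adjusted p = 0.0456), and in MLLT6 none was called. The MLLT10 call was lost without any 1 of the NT libraries and with the compared groups alone. It was also lost without replicate 1 of either MLLT10 guide or replicate 3 of guide 2.

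The neutrophil markers moved with the calprotectin pair, and their part in the result was not tested. All 12 rose in DOT1L, with a summed level of 29245 to 35021 CPM against 2016 to 2569 in NT, while 5 of 6 progenitor markers fell, to a sum of 460 to 543 CPM from 1482 to 1758. Of all tested genes 21.8% were called in that comparison. Among the 12, Retnlg had no count in NT or MLLT6 and at most 1.20 CPM in any MLLT10 or MLLT1 library. It passed the filter on low counts only through DOT1L (58.6 to 63.5 CPM), so its call there is not separate evidence. Of 8 tested monocyte and macrophage markers 3 rose in DOT1L and 2 fell, and the list summed to 3369 to 4208 CPM against 4069 to 6372 in NT. Fcgr1, Csf1r and Cd14 rose by 2.95 ± 0.56, 2.57 ± 0.63 and 1.33 ± 0.48 log2 (edgeR adjusted p = 0.000384, 0.00425 and 0.0484). Adgre1 and Ccr2 fell by 2.48 ± 0.20 and 2.04 ± 0.42 (adjusted p = 1.84e-09 and 0.000823). Ly6c2, at 4970 ± 1104 CPM (SD) in NT and 3782 ± 438 in DOT1L, made up most of that sum and was not called. In MLLT10, 3 of the 12 neutrophil markers rose, where 0.473% of all genes were called, and the sum was 3038 to 4784 CPM. That count was 1 without NT replicate 2 or without NT replicate 3, 6 in DESeq2 and 8 without the filter on low counts. In MLLT1, 6 rose and 1 fell, where 2.58% of all genes were called. Camp, Ngp, Ltf and Lcn2 rose by 2.38 ± 0.25, 2.16 ± 0.24, 4.21 ± 0.66 and 1.75 ± 0.29 log2 (edgeR adjusted p = 2.34e-06, 6.93e-06, 0.000694 and 0.00107). Prtn3 fell by 0.58 ± 0.15 (adjusted p = 0.0329). The sum of 2248 to 2907 CPM overlapped with NT while S100a8 was 9.48-fold higher. Elane, Prtn3 and Mpo made up most of that sum, at 941, 754 and 341 mean CPM in NT and 668, 506 and 464 in MLLT1. These 3 are named after their values were seen. The progenitor markers Flt3 and Cd93 fell in MLLT1, by 1.46 ± 0.27 and 0.44 ± 0.12 log2 (edgeR adjusted p = 0.00269 and 0.0430). Neither call held without NT replicate 3, and 1 progenitor marker was called without NT replicate 2 or without any 1 of 5 MLLT1 libraries (guide 1 replicates 2 and 3, guide 2 replicates 1, 2 and 3). The macrophage marker Adgre1 fell by 0.90 ± 0.16 in MLLT1 and by 0.85 ± 0.16 in MLLT10, and the monocyte receptor gene Ccr2 fell by 1.37 ± 0.33 in MLLT1 (adjusted p = 0.00184, 0.00721 and 0.0222). Other markers of that list stood above NT without a call. Among them were Fcgr1, Csf1r and Cx3cr1 in MLLT1 (1.74 ± 0.53, 1.63 ± 0.60 and 1.38 ± 0.54 log2). In MLLT10 they included Csf1r, Cx3cr1 and Cd14 (1.15 ± 0.61, 0.94 ± 0.54 and 0.94 ± 0.43). Lactoferrin and lipocalin belong to both this list and the metal-binding one, so these counts are not separate.

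The genes most like S100a8 were taken as those with the smallest root mean square difference in log2 CPM over the 8 group means, each centred on its own mean, as a description with no test. S100a9 itself differed by 0.08 log2 units. Among protein-coding genes outside the family the nearest were Camp (0.33), Ltf (0.43), Wfdc21 (0.45), Cybb (0.52) and Stfa2 (0.58). Camp and Ltf encode granule proteins of neutrophils, and Cybb encodes the catalytic subunit of the phagocyte oxidase. With a prior count of 5 in place of 2 the same 5 genes were nearest, with Ltf (0.31) ahead of Camp (0.33) and Stfa2 ahead of Cybb. For S100a4 the nearest were Krtcap3, Ssh1, Irak2, Scai and Sidt2, at 0.11 to 0.13 log2 units, but all its group means lay close together, so closeness says little there, and with a prior count of 5 Bcr took the place of Scai. S100a6 did not pass the filter and had no such list.

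A further pattern ran across groups with the replicate number in the sample titles. S100a4 and S100a10 were each lowest in replicate 1 in 7 of the 8 groups, and S100a8 and S100a9 were each highest in replicate 1 in 5. Replicate 1 was the lowest library in 2 groups for S100a8 and in 3 for S100a9. In a fit that took replicate number as a block, replicate 1 was compared with the mean of replicates 2 and 3, a contrast added after the values were seen. S100a4 was lower by 0.94 ± 0.20 log2 (SE, edgeR adjusted p = 0.00495), S100a10 was lower by 0.26 ± 0.08 (adjusted p = 0.0320) and S100a8 was higher by 0.44 ± 0.14 (adjusted p = 0.0360). S100a9 did not pass, at 0.35 ± 0.12 (adjusted p = 0.0540). These 3 of 7 members compare with 13.1% of all tested genes. S100a4 passed in all 9 fits that left out 1 group or both libraries that stood apart. S100a10, S100a8 and S100a9 each passed in 4 of 9. The labels do not say what the replicate number stands for, and library totals of replicate 1 (2433135 to 7078139 counts) overlapped with those of replicates 2 and 3.

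**Figure D5:**
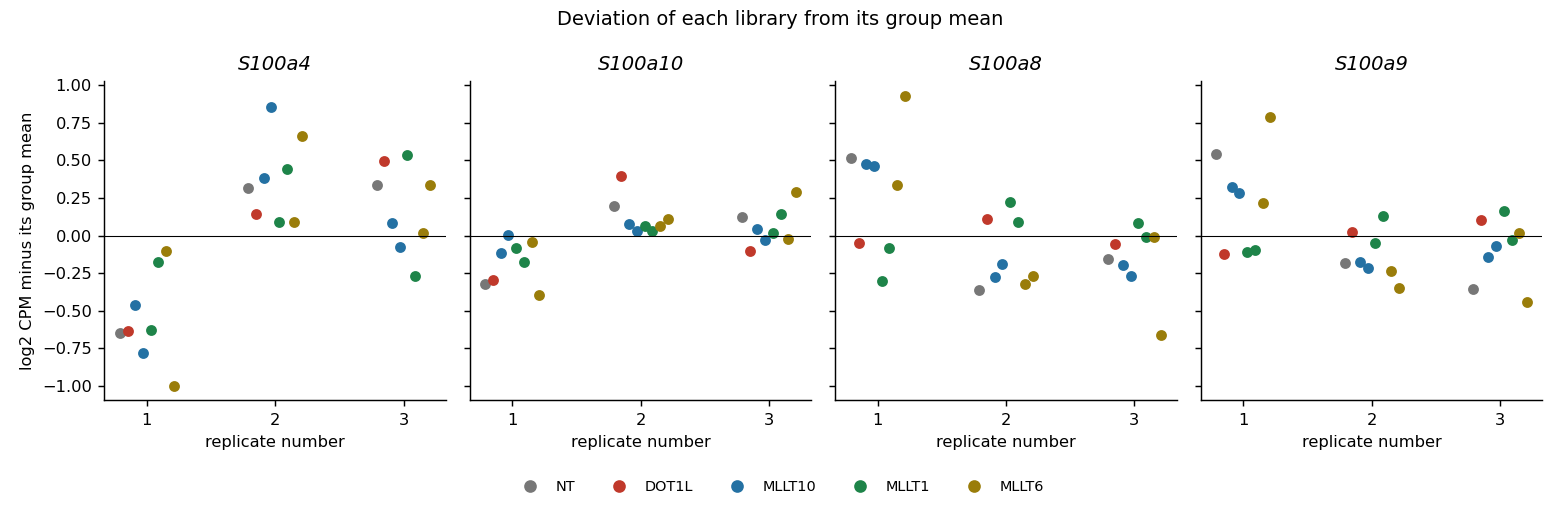
Log2 CPM of each library minus the mean of its group, by replicate number, for S100a4, S100a10, S100a8 and S100a9; each point is 1 library, coloured by knockout. Replicate 1 is the lowest library of its group for S100a4 and S100a10 in 7 of 8 groups, and the highest for S100a8 and S100a9 in 5 of 8, though the lowest in 2 and 3.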

How the data were processed

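The authors deposited raw counts per Ensembl gene for 24 libraries, and per the submitters' processing notes bcl2fastq, HISAT2, HTSeq, DESeq2 and the mm10 build were used. Tool versions, annotation, library kit and strand setting were not given in the sources used here. Ratios, sums and shares of several genes were therefore left without correction for differences between genes in length or capture. They serve to compare libraries. Reads of overlapping genes cannot be told apart. Columns were matched to samples by name. GENCODE M21 gave symbols for 42548 of 43629 identifiers. Libraries of a group differed by more than sampling noise (chi-square per gene 4.77 to 34.3), and all 3 were kept.

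The counts were tested with edgeR 4.0.16 (R 4.3.3): TMM, filterByExpr (10578 genes), 1 quasi-likelihood fit of all 8 groups, and Benjamini-Hochberg adjustment over all genes tested, with calls at 0.05. There were 19 comparisons. MLLT10, MLLT1 and MLLT6 were each compared as the mean of 2 guides. SE was taken from the fold change and the F statistic (absolute log2 value divided by root F), and intervals are 95% from that SE. Ratios were tested by exact permutation. The fits were tested on simulated data.

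Alternatives were no filter, DESeq2 1.42.0 size factors or test, the replicate number as a block, the compared groups alone, library sizes without S100a8 and S100a9, and leaving out libraries. The members and lists were chosen with earlier results of these data known. All 8 members were named, with up to 4 called genes of each list (smallest adjusted p), called neighbours within 500 kb, and the 5 genes most like S100a8 and S100a4 (prior count 2, or 5 as an alternative). Promoters are RefSeq's.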

Additional observations from a re-analysis of the deposited data

Results flagged for a closer look

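1 of the 6 MLLT6 libraries, replicate 1 of guide 2, stood apart for both calprotectin genes. It held S100a8 at 219 CPM, where the other 5 lay at 70.3 to 111, and S100a9 at 180.3 CPM, where the others lay at 74.3 to 102. The gap to the nearest library was 0.724 and 0.743 of the whole range. Of 24 sets of 6 libraries examined, 2 held such a library, and chance alone flags about 1 set in 20. Both flags fell on this library, in 2 genes that changed together, so they are not separate events. The 12 neutrophil markers summed to 2756 CPM in that library and to 1673 to 2268 CPM in the other 5. Their part in the result was not tested.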

How the results depend on the processing

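The counts of members called in each knockout against NT kept within 1.5 times under all alternatives run, except in MLLT6, where dropping the filter on low counts gave 1 call (S100a9) in place of 0. Without the filter MLLT6 guide 2 had 2 calls in place of 0 (S100a8 and S100a9, adjusted p = 0.0131 and 0.0328). MLLT10 guide 1 had 0 in place of 2 when the compared groups were fitted alone. Leaving out 1 library gave 1 to 2 calls for each MLLT10 guide. Called neighbours in DOT1L were 2 within 500 kb and 4 within 1000 kb. The S100a8 to S100a9 log2 ratio, DOT1L minus NT, ranged from -0.088 to 0.105 when 1 library was left out.

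Reversals fell only on uncalled values near 0. Over the alternatives, S100a4 in DOT1L lay between -0.293 and 0.263, S100a1 between -0.280 and 0.012 in MLLT10 and between -0.174 and 0.063 in MLLT1, S100a10 in MLLT10 between -0.143 and 0.104, and S100a11 between -0.135 and 0.242 in MLLT10 and between -0.181 and 0.182 in MLLT6. S100a4 in DOT1L was -0.012 with the compared groups alone, S100a11 in MLLT6 was -0.0012 with the block, and S100a13 in replicate 1 against the others was 0.029 without the DOT1L and 0.0075 without the MLLT10 guide 1 libraries. The cause was not tested.

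Counts over all genes moved more: in MLLT10 from 50 to 192 without the filter, 105 in DESeq2, 79 with the block, 79 without both libraries that stood apart, 28 with the compared groups alone 15 without NT replicate 2 or 3, and 33 without MLLT10 guide 1 replicate 1. In MLLT1 they moved from 273 to 463 without the filter, 457 with the block, 97 with the compared groups alone and 432, 83 and 74 without NT replicate 1, 2 and 3. In MLLT6 they moved from 0 to 80 without the filter. Replicate numbers paired the libraries (every correlation of deviations over 0.1) in 6 of 28 pairs of groups, 3 of 7 with NT, so they were not taken as pairs. Depth limits S100a4 and S100a6, with 487 and 179 counts in all.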
